A study of Drosophila melanogaster with 4 samples.

Results

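The genes described here encode the subunits of the Drosophila 26S proteasome, followed across 4 RNA sequencing libraries of larval brains. They were taken from the annotated features of the count files by name, as every gene whose FlyBase symbol starts with Rpn, with Rpt and a digit, with Prosalpha or with Prosbeta. The rule found 48 of the 17869 FlyBase genes among 23932 features. Of these, 32 are the constitutive subunits, namely 7 genes of the alpha ring, 7 of the beta ring, 6 ATPases of the base, 4 other base subunits and 8 lid subunits. The remaining 16 carry symbols ending in T or R, with or without a digit, and are described apart as testis-type copies. Measured expression played no part in the rule.

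Brains came from wandering last-instar (WL3) Drosophila melanogaster larvae. The genotype insc-GAL4>wRNAi carries a hairpin against white (w), an eye color gene, as the control, and insc-GAL4>orb2RNAi carries a hairpin against orb2, which encodes an RNA-binding protein of the CPEB family. Both were driven by insc-GAL4, which is active in the neuroblast lineage, while RNA was extracted from the dissected brain as a whole. Each genotype had 2 libraries, called replicates 1 and 2, and each library came from a pool of 60 brains. No source says whether the pools came from separate crosses, so p-values measure the spread between these libraries only.

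The proteasome degrades proteins tagged with ubiquitin and is needed by every cell. Its core particle stacks alpha and beta rings, with the proteolytic sites inside the beta rings and the alpha rings gating the entrance. The regulatory particle caps the core. Its lid and base bind the tagged protein and remove the ubiquitin, and the ATPases of the base unfold the chain and feed it into the core. Each subunit takes part in the particle in fixed proportion. In fly testes, several core subunits have germline copies encoded by other genes.

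Counts per library ran from 34610836 to 75412298, and white RNAi replicate 2 was the shallowest. The paper reports fewer reads in total than these counts add up to, so a count may not stand for a single independent read or fragment. The targeted gene went against its labels. orb2 was at 17.1 and 15.3 CPM (counts per library size scaled to 1e+06 counts by the TMM method) in white RNAi replicates 1 and 2 and at 105 and 53.6 CPM in orb2 RNAi replicates 1 and 2, a log2 fold change of 2.29 (SE 0.394, adjusted p = 0.9998, edgeR). For this reason the groups are called the libraries labelled white RNAi and orb2 RNAi throughout, and every direction given below is between labels. Defining neuron genes were counted in every library (9 of 9 listed), with summed levels of 4363, 2421, 3546 and 3071 CPM in the same order. All 5 listed neuroblast genes were counted too, at 351, 441, 398 and 393 CPM. Fat body genes summed to 4130, 178, 506 and 2453 CPM and salivary gland genes to 33.2, 156, 101 and 1048 CPM. Glia genes summed to 561, 817, 596 and 744 CPM. Hemocyte genes summed to 222, 263, 225 and 336 CPM and ring gland genes to 206, 233, 165 and 157 CPM. Muscle genes summed to 128, 316, 597 and 574 CPM and eye disc genes to 58.4, 80.1, 101 and 98.7 CPM. Both orb2 RNAi libraries lay above both white RNAi libraries for 6 of 7 listed muscle and 3 of 3 eye disc genes, against 18.5% of all tested features. The libraries thus also differed in RNA of tissues other than brain, whose part in the results below was not tested. The 8 listed testis genes summed to 5.32 to 9.21 CPM. Of these, aly, sa and dj, which act in spermatocytes or sperm, were at 0 in all 4 libraries. Counted in every library were bam, at 1.66, 3.05, 2.06 and 1.85 CPM, and can, at 5.75, 3.29, 3.89 and 2.97 CPM. Mst77F, Mst98Ca and fzo were counted in some libraries only.

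All 32 constitutive subunits passed the filter on low counts (edgeR's filterByExpr) and were expressed in every library, at 103 to 523 CPM and 6025 to 39280 counts. Levels between genes are compared per kilobase of exon. On this scale the mean level over the 4 libraries ran from 118 CPM per kilobase for Rpn3 to 263 for Prosalpha2, a 2.24-fold span for 32 genes scattered over 5 chromosome arms, with 4 genes on 2L, 10 on 2R, 5 on 3L, 9 on 3R and 4 on X. Core particle genes lay higher, with a median of 220 CPM per kilobase over 14 genes against 162 over 18 genes of the regulatory particle. Within the core the median was 234 for the alpha ring and 210 for the beta ring. In the regulatory particle it was 178 for the ATPases, 166 for the lid and 135 for the other base subunits. The order of alpha ring, beta ring and ATPases was the same in 4 of 4 libraries, with alpha ring medians of 190, 347, 201 and 201 CPM per kilobase, beta ring medians of 171, 287, 188 and 195, and ATPase medians of 154, 218, 176 and 160. Neighbouring groups in this order overlapped gene by gene, and the order depends on the exon models used for length. Per kilobase of coding sequence the highest subunit was Prosalpha4 and the lowest Rpn1.

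**Figure D1:**
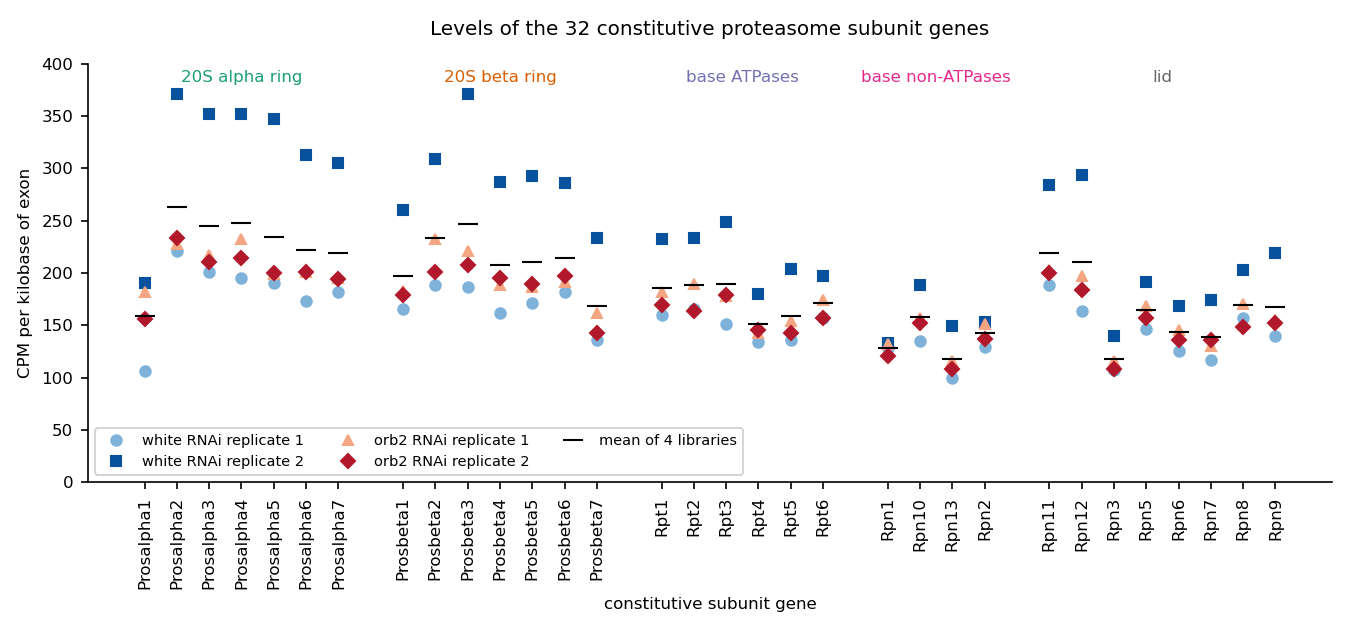
Level of each of the 32 constitutive subunit genes in CPM per kilobase of exon (vertical axis) in each of the 4 libraries (colored points), ordered by subcomplex, with black dashes for the mean of the 4 libraries. The dark blue squares of white RNAi replicate 2 lie above the other 3 libraries at every gene, from 133 at Rpn1 to 371 at Prosalpha2 and Prosbeta3.

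Between the labels, 0 of the 32 constitutive subunits passed the test, edgeR's quasi-likelihood test at a p-value below 0.05 after Benjamini-Hochberg adjustment, with a log2 fold change beyond 0.5 in size. Over all 13082 tested features 0 passed as well (0%). At an unadjusted p under 0.05 the count was 0 of 32, against 598 of all tested features (4.57%), and DESeq2 with and without its prior also called 0 subunits. The fitted log2 fold changes, orb2 over white labels, ran from -0.43 to 0.20 with SE of 0.202 to 0.374, and 30 lay below 0 and 2 above. Their median was -0.20, against 0.02 over all tested features. For 0 of 32 subunits did the libraries of the orb2 RNAi label both lie above or both below those of the white RNAi label, where 18.5% and 11.7% of all tested features did. Every adjusted p was 0.9998, and SEs of this size leave room for changes in either direction that this design could not call. In bulk tissue, fewer cells of a type and less RNA per cell cannot be told apart.

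What the subunits shared was the highest library and, for most of them, the lowest. White RNAi replicate 2 was the highest of the 4 libraries for 32 of 32 subunits, against 33.6% of all tested features. White RNAi replicate 1 was the lowest for 29 of 32, against 30.8% of all tested features, and orb2 RNAi replicate 2 was the lowest for Rpn1, Rpn8 and Rpt2. The 32 genes together made up 6760 and 10181 CPM in white RNAi replicates 1 and 2 and 7658 and 7251 CPM in orb2 RNAi replicates 1 and 2. The libraries labelled orb2 RNAi thus lay between the ones labelled white RNAi. As a log2 ratio to the mean of the other 3 libraries, the median subunit stood at -0.30, 0.54, -0.08 and -0.16 in white RNAi replicates 1 and 2 and orb2 RNAi replicates 1 and 2. The same medians over all tested features were -0.02, -0.08, 0.02 and 0.05.

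The comparison of labels therefore turned on which white RNAi library it was read against. Without white RNAi replicate 1, the fitted change lay below 0 for 32 of 32 subunits with a median of -0.48. In that fit 18 subunits were lower at an unadjusted p under 0.05, against 11.3% of all features tested, the lowest adjusted p was 0.1015 (edgeR) and 0 were called. Without white RNAi replicate 2, the change lay above 0 for 31 of 32 with a median of 0.13. Only Prosalpha1 then was higher at an unadjusted p under 0.05 (log2 fold change 0.68, SE 0.178, adjusted p = 0.4932, edgeR), against 6.93% of all features tested. In each of these fits the lone white RNAi library was assumed to vary like the orb2 RNAi libraries.

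**Figure D2:**
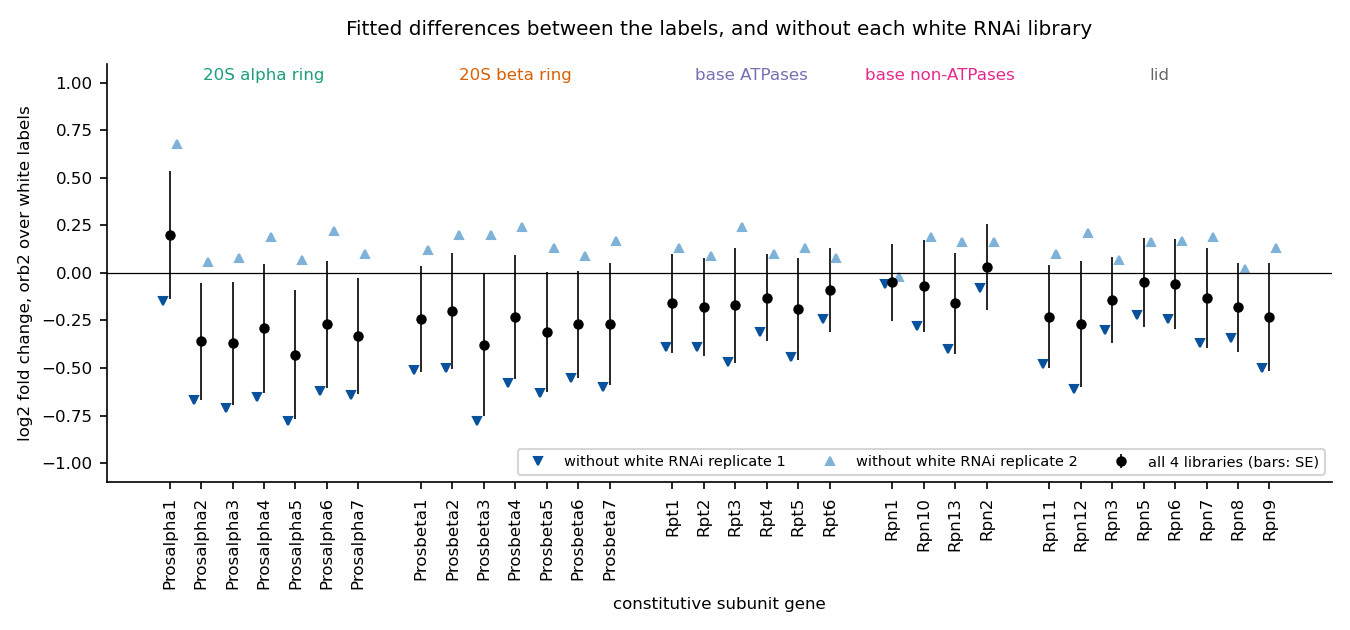
Fitted log2 fold change, orb2 over white labels (vertical axis), of each constitutive subunit with all 4 libraries (black circles, bars show 1 SE) and without each white RNAi library in turn (blue triangles). All black circles but those of Prosalpha1 and Rpn2 lie between 0 and -0.43, the downward triangles without white RNAi replicate 1 lie below 0 at every gene, and the upward triangles without replicate 2 lie above 0 at every gene but Rpn1.

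The alpha ring frames and gates the core, and its median log2 fold change between the labels was -0.33. Prosalpha5 (FBgn0016697, 2R from 17412767 to 17413769, plus strand) had the largest fitted difference of all 32 genes. It was at 179 and 328 CPM in white RNAi replicates 1 and 2 and at 188 and 189 CPM in orb2 RNAi replicates 1 and 2. A single library, white RNAi replicate 2, stood high, and the other 3 lay close together, so the labels overlapped (log2 fold change -0.43, SE 0.339, adjusted p = 0.9998, edgeR). Prosalpha2 (FBgn0086134, 3R from 12431321 to 12432556, plus strand), the most abundant subunit per kilobase of exon, had 203, 341, 210 and 214 CPM in the same order and a log2 fold change of -0.36. Prosalpha3 (FBgn0261394, 2R from 20994900 to 20996118, plus strand) had 196, 342, 211 and 205 CPM and a log2 fold change of -0.37. These 3 genes had the smallest unadjusted p-values among the subunits (0.269 to 0.303), and all 3 were again high in one library only. Prosalpha4, Prosalpha6 and Prosalpha7 had the same lowest and highest library, at 177 to 229 CPM in white RNAi replicate 1 and 298 to 414 CPM in white RNAi replicate 2. Over the ring, white RNAi replicate 2 stood 0.71 above the other libraries as a median log2 ratio.

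The beta ring carries the proteolytic sites, in Prosbeta1 (caspase-like), Prosbeta2 (trypsin-like) and Prosbeta5 (chymotrypsin-like). Prosbeta1 was at 142, 222, 156 and 152 CPM in white RNAi replicates 1 and 2 and orb2 RNAi replicates 1 and 2. Prosbeta2 was at 195, 319, 240 and 208 CPM, and Prosbeta5 at 195, 334, 212 and 215 CPM. All 3 were lowest in white RNAi replicate 1 and highest in white RNAi replicate 2, and their log2 fold changes between labels were -0.24, -0.20 and -0.31. The noncatalytic Prosbeta3 (FBgn0026380, 3R from 9005313 to 9006226, minus strand) varied the most of the ring. It was at 171 and 339 CPM in the white RNAi libraries and at 202 and 190 CPM in the orb2 RNAi libraries, and its log2 ratio of white RNAi replicate 2 to the other 3 libraries, 0.86, was the largest of all 32 subunits. Its fitted log2 fold change was -0.38 with an SE of 0.374. Prosbeta7, the lowest of the ring per kilobase (168 CPM per kilobase), had 165, 283, 196 and 174 CPM. Prosbeta4 and Prosbeta6 had log2 fold changes of -0.23 and -0.27. Shares of 7.93% of the exon bases of Prosbeta2 and 7.11% of those of Prosbeta5 are also covered by neighbouring genes on the other strand, whose reads could not be kept apart here.

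The 6 ATPases of the base, Rpt1 to Rpt6, form the ring that unfolds the substrate. Rpt3 (FBgn0028686, X from 11125101 to 11126785, plus strand) was the most abundant of them per kilobase, at 235 and 387 CPM in the white RNAi libraries and 277 and 278 CPM in the orb2 RNAi libraries. Rpt4 (FBgn0028685, X from 6289470 to 6291245, minus strand) was the least abundant, at 197, 264, 209 and 213 CPM. Rpt5 had the largest fitted difference of the ring, -0.19 with an SE of 0.269, and was at 221, 332, 251 and 232 CPM. As a ring the ATPases spanned only 1.26-fold per kilobase, the narrowest span of the 5 groups. Their fitted log2 fold changes lay between -0.19 and -0.09, and each of them overlapped between the labels. Neighbouring genes on the other strand cover 13% of the exon bases of Rpt6, 7.14% of Rpt2 and 6.35% of Rpt4.

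The other base subunits are the scaffolds Rpn1 and Rpn2 and the ubiquitin receptors Rpn10 and Rpn13. Here the libraries came closest together. Rpn1 (FBgn0028695, 3L from 19915051 to 19918160, plus strand) was at 390 and 404 CPM in the white RNAi libraries and 400 and 367 CPM in the orb2 RNAi libraries, a log2 fold change of -0.05 with an SE of 0.202, the smallest SE of all 32 subunits. Rpn2 (FBgn0028692, 3R from 29153524 to 29157255, plus strand) was at 439, 523, 516 and 467 CPM, and its log2 fold change of 0.03 made it the only subunit besides Prosalpha1 that lay above 0. The receptors varied more than the scaffolds. Rpn10 (FBgn0015283, 3L from 21537000 to 21538582, plus strand) had 192, 268, 223 and 215 CPM, and Rpn13 (FBgn0033886, 2R from 13958545 to 13960404, minus strand) had 168, 250, 194 and 180 CPM. Rpn13 had the largest fitted difference of the group, -0.16 with an SE of 0.265.

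The lid holds Rpn11, the deubiquitinase that cuts the ubiquitin chain from the substrate, its partner Rpn8, and scaffold subunits. Rpn11 (FBgn0028694, 2L from 5058404 to 5059790, minus strand) was the most abundant lid gene per kilobase and was at 227 and 343 CPM in the white RNAi libraries and 245 and 242 CPM in the orb2 RNAi libraries. Rpn3 (FBgn0261396, 2L from 19051790 to 19053681, plus strand), the least abundant, had 195, 256, 213 and 197 CPM. The largest fitted difference of the lid was that of Rpn12 (FBgn0028693, 3L from 16583028 to 16584022, plus strand), -0.27 with an SE of 0.331, at 164, 293, 196 and 183 CPM. All 3 stood highest in white RNAi replicate 2. Rpn5, Rpn6 and Rpn7 lay between -0.13 and -0.05 and Rpn8 and Rpn9 at -0.18 and -0.23. Of the exon bases of Rpn9, 15.7% are also covered by genes of the other strand, the highest share among the subunits, and of those of Rpn7 6.32%.

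How far a subunit rose in white RNAi replicate 2 went with the length of its transcript. Subunit exon lengths ran from 815 bases for Prosbeta4 to 3412 bases for Rpn2. Over the 32 subunits, the log2 ratio of white RNAi replicate 2 to the other libraries fell with exon length (Spearman's rho -0.751 over 32 genes of the same libraries, a description). Over all tested features the same coefficient was -0.348. In the other 3 libraries, whose ratios contain white RNAi replicate 2, it was 0.646 in white RNAi replicate 1, 0.652 in orb2 RNAi replicate 1 and 0.272 in orb2 RNAi replicate 2 over the subunits, and 0.305, 0.252 and 0.0929 over all tested features. The alpha and beta ring genes, with median lengths of 973 and 944 bases, stood 0.71 and 0.67 above the other libraries in white RNAi replicate 2. The ATPases, with a median of 1534 bases, stood 0.44 above, the lid 0.40 and the other base subunits 0.25.

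**Figure D3:**
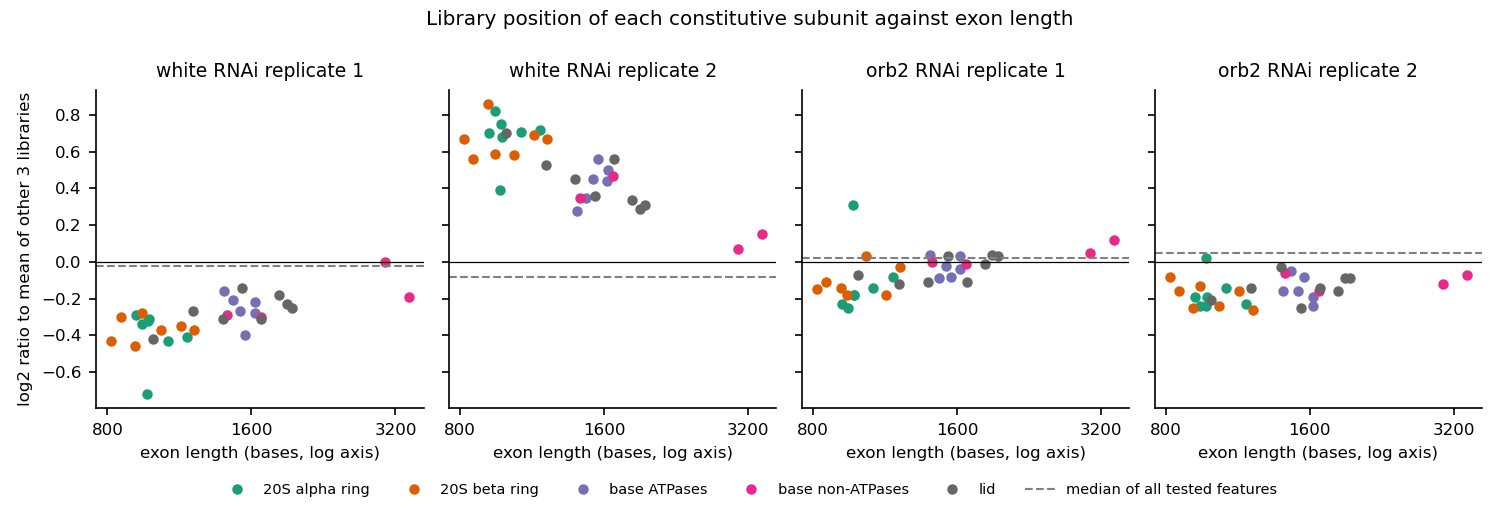
Log2 ratio of each library to the mean of the other 3 (vertical axis) against exon length in bases (horizontal log axis) for the 32 constitutive subunits, with 1 panel per library, color for subcomplex and a dashed line for the median of all tested features. In white RNAi replicate 2 every subunit lies above 0 and the short ring genes lie highest, up to 0.86, while the long Rpn1 and Rpn2 lie at 0.07 and 0.15; the green point at -0.72 in the first panel is Prosalpha1.

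When the dependence of level on exon length was fitted and taken out in each library, the subunits moved closer to the other features but kept part of the pattern. The median log2 ratios became -0.20 and 0.17 in white RNAi replicates 1 and 2 and 0.15 and -0.14 in orb2 RNAi replicates 1 and 2. White RNAi replicate 2 no longer stood alone, since orb2 RNAi replicate 1 lay at nearly the same height. The median log2 fold change between labels became 0.01, with 18 subunits above 0 and 14 below. Taking out the trend removes whatever goes with exon length, and what the trend itself came from was not tested. Of the 9 neuron genes, 7 were lowest in white RNAi replicate 2, while Gad1 was lowest in white RNAi replicate 1 and fne in orb2 RNAi replicate 2. Their median exon length was 7098 bases, and their part in the result was not tested.

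The proportions between subunits varied less across the libraries than those between features at large. They were not set against the proportions within other complexes, so this is not shown to be particular to the proteasome. Between any pair of libraries, the log2 ratios of the 32 subunits had an SD of 0.0826 to 0.214. The SD was 0.266 to 0.714 over the 1427 features that reached the mean level of the lowest subunit (154 CPM), and 0.627 to 1.00 over all tested features. The tightest pair was that of the orb2 RNAi libraries, and the loosest pairs, at 0.214 each, paired white RNAi replicate 2 with the replicate 1 libraries, where the ratios followed exon length. Single proportions still shifted, since the log2 ratio of white RNAi replicate 1 to replicate 2 ran from -0.99 for Prosbeta3 to -0.05 for Rpn1. Without Prosalpha1 the range was 0.0696 to 0.214, and with the length trend also taken out it was 0.0726 to 0.118.

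The proportion of Prosalpha1 differed most between the labels. Prosalpha1 (FBgn0263121, 2R from 7827303 to 7828678, minus strand) was at 103 and 184 CPM in white RNAi replicates 1 and 2 and at 177 and 152 CPM in orb2 RNAi replicates 1 and 2, with a log2 fold change of 0.20 (SE 0.336, adjusted p = 0.9998, edgeR). Unlike the other alpha ring genes, it was nearly as high in orb2 RNAi replicate 1 as in white RNAi replicate 2. Per kilobase it amounted to 0.552 and 0.542 of the median of the other 6 alpha ring genes in the white RNAi libraries and to 0.872 and 0.76 in the orb2 RNAi libraries. Set against the median subunit of its own library, its log2 level was -0.92 and -0.83 in the white RNAi libraries and -0.28 and -0.50 in the orb2 RNAi libraries, a difference of 0.49. For the other 31 subunits this difference ran from -0.12 for Prosalpha5 to 0.27 for Rpn2. Within the white RNAi label Rpn1 and Rpn2 moved as far, with Rpn1 at 0.99, 0.30, 0.90 and 0.77 and Rpn2 at 1.17, 0.67, 1.27 and 1.12 in white RNAi replicates 1 and 2 and orb2 RNAi replicates 1 and 2. On that relative scale the labels stood apart for Prosalpha1 and 3 others upward and for 4 downward, while 22.1% of all tested features stood apart upward and 5.79% downward. Prosalpha1 was singled out after its values were seen, so this is a description with no test. In CPM, where Prosalpha1 overlapped between the labels, 9 of the 10 listed muscle and eye disc genes had both orb2 RNAi libraries above both white RNAi libraries. The same held for 18.5% of all tested features. The part of the muscle and eye disc genes in the result was not tested.

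The gene named as its copy lies beside it. Prosalpha1R (FBgn0050382, 2R from 7830413 to 7831771, minus strand) is separated from Prosalpha1 by 1734 bases and has a coding sequence of the same length, 732 bases. Its counts were 6632, 6014, 13596 and 8404, next to 6434, 6025, 13465 and 8672 for Prosalpha1, so the ratio of the CPM of the copy to that of the subunit stayed between 0.969 and 1.03. How reads with several alignments were counted is not given in the sources used here, and reads of these genes may have been split or counted at both, so the level of each alone is uncertain. If reads were counted at both genes, the sum holds them more than once and is too high, so it is uncertain as well. The sum of both genes per kilobase was 1.13 and 1.09 times the median of the other alpha ring genes in the white RNAi libraries and 1.77 and 1.51 times in the orb2 RNAi libraries. CG18853 lies between the pair on the other strand and overlaps 1.79% of the exon bases of Prosalpha1R. It was at 15.1 and 16.1 CPM in the white RNAi libraries and 24.5 and 24.7 CPM in the orb2 RNAi libraries. It was thus higher in both libraries of the orb2 RNAi label, as were 18.5% of all tested features. The part of CG18853 in the result was not tested.

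**Figure D4:**
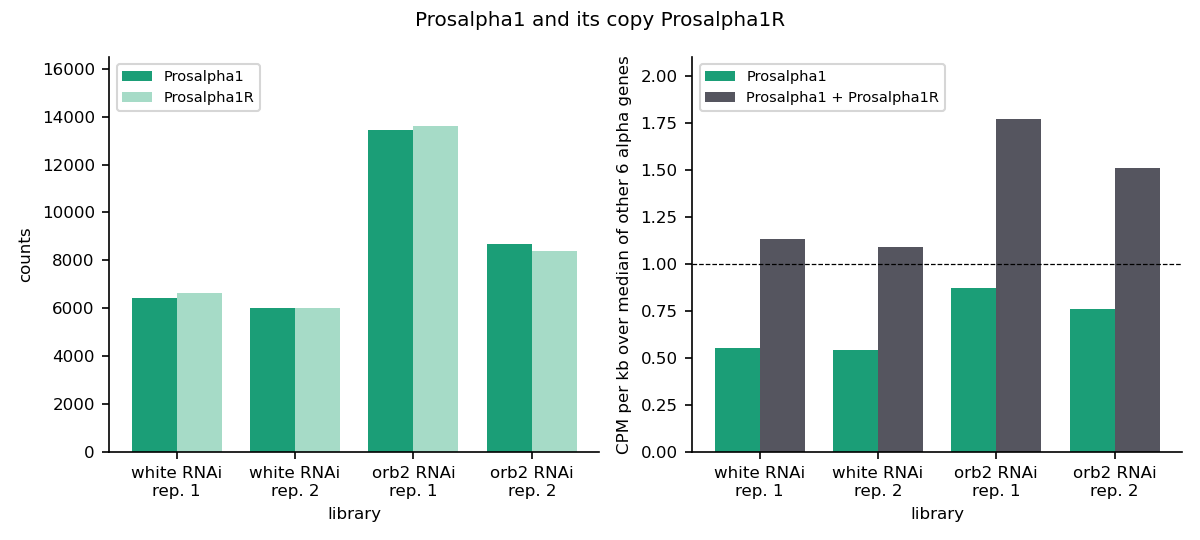
Left, counts (vertical axis) of Prosalpha1 and Prosalpha1R in each library. Right, level per kilobase of Prosalpha1 alone and of both genes summed, divided by the median of the other 6 alpha ring genes of the same library (dashed line at 1). The bars of the pair have nearly equal height in every library, and the ratio on the right is higher in both orb2 RNAi libraries (0.872 and 0.76 for Prosalpha1) than in both white RNAi libraries (0.552 and 0.542).

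Of the other 15 testis-type copies, 13 had at most 54 counts in any library. Prosalpha4T2, Prosalpha6T, Prosbeta4R1 and Prosbeta4R2 had 0 counts in all 4 libraries, which allows up to 3 counts, or 0.048, 0.0915, 0.0394 and 0.0525 CPM in white RNAi replicates 1 and 2 and orb2 RNAi replicates 1 and 2, for counting error only. This bound takes counts as independent reads, which is not given. Prosbeta2R1, Prosbeta5R1 and Prosbeta5R2 stayed under 10 counts. The highest counts were those of Rpt3R and Rpt6R, the copies of base ATPases and the only ones with at least 10 counts in every library.

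Rpt3R (FBgn0037742, 3R from 9754735 to 9756510, minus strand) had 352 and 225 counts in the white RNAi libraries and 436 and 290 in the orb2 RNAi libraries, or 5.63, 6.86, 5.72 and 5.07 CPM. Per kilobase it stood at 2.12% of Rpt3, and its log2 fold change between labels was -0.21. Rpt6R (FBgn0039788, 3R from 30582198 to 30583697, minus strand) had 301, 142, 379 and 154 counts, or 4.81, 4.33, 4.98 and 2.69 CPM, and stood at 1.7% of Rpt6 with a log2 fold change of -0.25. Both overlapped between the labels. Rpt4R had 0 and 54 counts in the white RNAi libraries and 26 and 16 in the orb2 RNAi libraries, and Prosalpha4T1 had 16 and 0 against 7 and 22. With 0 counts in one library of each, no fold change is given. Together with Prosalpha1R, these were the 5 copies that passed the filter on low counts, and 0 of the 5 were called.

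Counts of the rarest copies came mainly from the libraries labelled orb2 RNAi. Of these 15 copies, 7 had 0 counts in both white RNAi libraries and some in an orb2 RNAi library, while 0 of 15 showed the reverse, against 13.2% and 1.81% of all 23932 features. Those shares include well-counted features and features never counted, which cannot show either pattern, so they are not a like measure for rare copies. Rpn13R had 20 counts and Rpn12R 15 in orb2 RNAi replicate 1, the deepest library, where Rpn12R had 2 in orb2 RNAi replicate 2 and Rpn13R had 0. Prosbeta2R2 had 12 and 7 counts in orb2 RNAi replicates 1 and 2, and Prosalpha3T had 12 counts in orb2 RNAi replicate 2 only. Prosbeta2R1, Prosbeta5R1 and Prosbeta5R2 had 6, 4 and 6 counts, all in orb2 RNAi replicate 1. None of them came from more than 20 counts in a library, and depth differed between the libraries too, so these values show detection and not a difference in level. The summed testis genes were 9.21 and 6.34 CPM in the white RNAi libraries and 7.10 and 5.32 CPM in the orb2 RNAi libraries, and the labels overlapped.

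**Figure D5:**
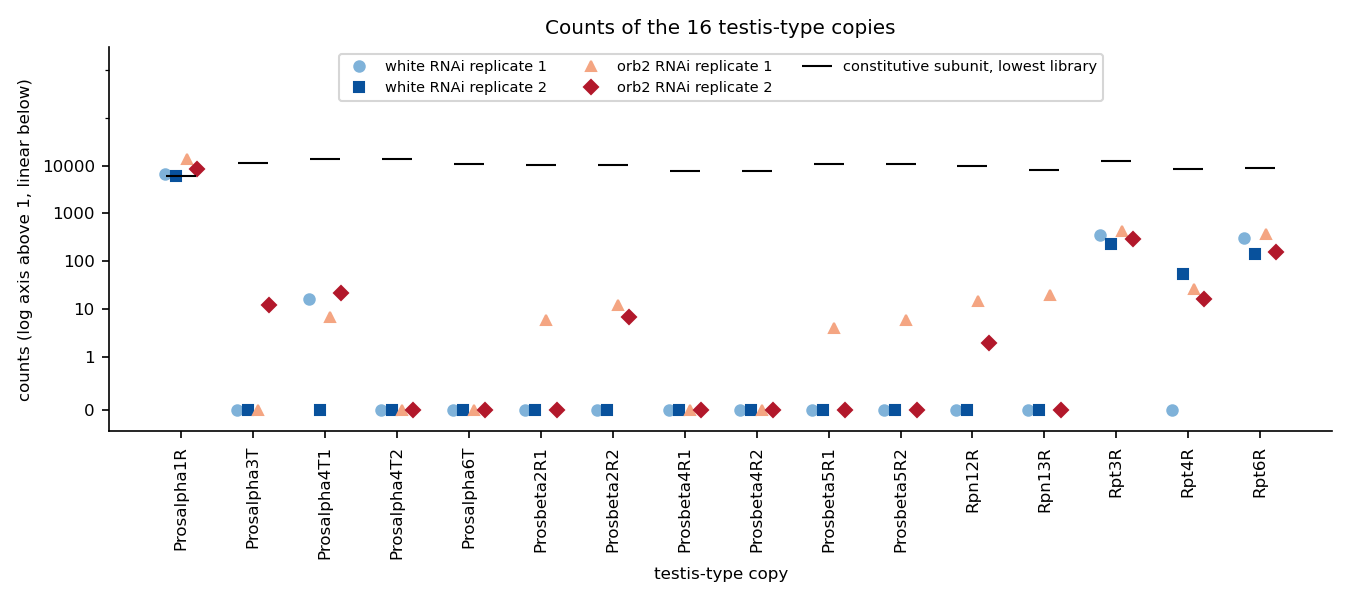
Counts of each of the 16 testis-type copies in the 4 libraries (colored points; vertical axis logarithmic above 1 and linear below it), with a black dash for the lowest count of the matching constitutive subunit. Prosalpha1R lies at the level of its subunit, Rpt3R and Rpt6R lie between 142 and 436 counts, and the other copies lie at 54 counts or fewer.

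Genes that build, regulate or serve the proteasome were read the same way. Of 25 listed genes, 22 were tested and 0 were called, with 0 at an unadjusted p under 0.05 and 0 called by DESeq2. Their median log2 fold change was -0.12, with 15 below 0 and 7 above, and 17 of the 22 were highest in white RNAi replicate 2. The labels stood apart downward for 4 (ntc, Txl, Ubi-p5E and Keap1) and upward for Ubqn, against 11.7% and 18.5% of all tested features. Uch-L5R and CG10694 were too low to test, and Ecm29 was not matched.

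Among genes for maturation and activation, white RNAi replicate 2 was the highest library for 6 of 6. Pomp, a chaperone of core assembly, was at 116 and 198 CPM in the white RNAi libraries and 132 and 129 CPM in the orb2 RNAi libraries. REG, an activator that caps the core in place of the regulatory particle, was at 192, 320, 234 and 248 CPM. Sem1, a small lid component whose symbol lies outside the naming rule, was at 121, 253, 128 and 129 CPM. These 3 shared the highest and the lowest library with most subunits. Of the 6, 4 were lowest in white RNAi replicate 1 and 2 in orb2 RNAi replicate 2. ntc (nutcracker), an F-box protein that binds the regulator PI31, was at 9.16 and 11.8 CPM in the white RNAi libraries and 7.27 and 6.17 CPM in the orb2 RNAi libraries, without overlap, and its log2 fold change of -0.64 (SE 0.363, adjusted p = 0.9998, edgeR) was not called.

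Of the 6 ubiquitin supply and shuttle genes tested, 3 were highest in white RNAi replicate 2. Rad23, a shuttle, was at 215, 278, 221 and 204 CPM, and Ubi-p5E, which encodes polyubiquitin, at 805, 1153, 772 and 714 CPM. Both were highest in white RNAi replicate 2 and lowest in orb2 RNAi replicate 2. Uba1, the ubiquitin-activating enzyme, was at 1009, 849, 989 and 926 CPM and was lowest in white RNAi replicate 2. The shuttle rngo was at 81.2, 93.1, 103 and 92.0 CPM and had the largest upward change of the list, 0.16 with an SE of 0.201. Ubi-p63E, another polyubiquitin gene, was at 1339, 1418, 1302 and 1362 CPM and varied little.

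cnc encodes a transcription factor of proteasome genes in flies, and maf-S encodes its dimer partner. cnc was at 222 and 127 CPM in the white RNAi libraries and 220 and 164 CPM in the orb2 RNAi libraries, so it was lowest in the library where the subunits were highest. Its log2 fold change was 0.14 with an SE of 0.351. maf-S was at 45.4 and 115 CPM in the white RNAi libraries and 48.1 and 50 CPM in the orb2 RNAi libraries. It stood high in white RNAi replicate 2 alone, and its log2 fold change of -0.71 (SE 0.473, adjusted p = 0.9998, edgeR) was the largest downward one of the list. The exons of cnc are far longer than those of maf-S, since in white RNAi replicate 1 they were at 24.2 and 70.3 CPM per kilobase. With the length trend taken out, the log2 fold changes were 0.00 for cnc and -0.59 for maf-S. The relation between these genes and the subunits, and the part of exon length in it, was not tested.

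Other abundant complexes showed how far the highest and the lowest library were shared. White RNAi replicate 2 was the highest library for 8 of 8 genes of the COP9 signalosome, a complex related to the lid, for 6 of 8 of the CCT chaperonin and for 86 of 88 cytosolic ribosomal protein genes tested. White RNAi replicate 1 was the lowest library for 4 of 8, 8 of 8 and 76 of 88 of these genes, next to 29 of 32 constitutive subunits. The median log2 fold changes of these complexes between labels were -0.11, 0.00 and -0.37, and edgeR called 0 of their genes. At an unadjusted p under 0.05 the count was 1, a ribosomal protein gene, and DESeq2 without shrinkage called 1 gene of these and the stress lists. The median log2 ratio of white RNAi replicate 2 to the other libraries was 0.49, 0.30 and 0.83 for these complexes, next to 0.54 for the constitutive subunits. Median exon lengths were 1441, 1972 and 909 bases, next to 1304 for the subunits, and in that library ratios fell with exon length. With the length trend taken out, the ratios were 0.19, 0.07 and 0.44, next to 0.17. Heat shock genes, which encode chaperones, summed to 5624, 9282, 6616 and 6250 CPM, the same lowest and highest library as most subunits, and 8 of 11 tested were highest in white RNAi replicate 2. Their part in the result was not tested.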

How the data were processed

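The deposited files hold raw counts for each annotated feature, without normalization, which the authors made with TrimGalore!, HISAT2 (BDGP6 assembly) and featureCounts. How strand, read pairs and reads with several alignments were counted is not given in the sources used here. The paper and the labels name different TruSeq kits. All features were tested with edgeR 4.0.16 in R 4.3.3 (TMM, filterByExpr, quasi-likelihood test without a replicate block), and DESeq2 1.42.0 served as an alternative. CPM were computed from the counts. Gene positions and lengths were read from Ensembl's BDGP6.54 annotation (release 115), later than the one used for counting, and 99.7% of tested features had a length. Library ratios used log2(CPM + 0.5), and length trends were fitted by lowess (span 0.3). Same-numbered libraries deviated together only weakly (Pearson's r 0.163 over 13082 features), and no source says whether they share more than a number.

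Values in every library are given for the highest, lowest and most changed subunit of each subcomplex per kilobase, the 3 subunits with the smallest p, copies with at least 10 counts, the most changed associated genes (2 in each direction), cnc and orb2. Other genes were named as examples after their values were seen. Members and lists were chosen with earlier results of these data known. Lists of marker, stress and associated genes held 2 symbols that were not matched. Of the stress lists, 11 heat shock genes and 6 cnc targets were tested, 0 were called, and their median log2 fold changes were 0.08 and 0.12. The alternatives comprised DESeq2 (with or without a prior on fold changes), scaling by RLE, upper quartile or totals, no filter or a stricter one, the replicate block, changed thresholds, coding length, the length trend taken out and each library left out in turn. Leaving out Prosalpha1 or summing it with Prosalpha1R was chosen after seeing the data. Protein and promoter sequences were not analysed here. The test was checked on simulated data. With the spread between libraries fitted here it missed most of the changes put in. A lack of calls therefore does not show a lack of change.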

Additional observations from a re-analysis of the deposited data

How the results depend on the processing

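The count of 0 called subunits and 0 called associated genes held under every alternative run. Over all features, edgeR called 0, the replicate block 73, DESeq2 130 without shrinkage and 35 with its prior, and the fits with one library left out called 0 without white RNAi replicate 2, 1 without white RNAi replicate 1, 136 without orb2 RNAi replicate 1 and 79 without orb2 RNAi replicate 2. DESeq2 without shrinkage called 1 gene of the comparison lists. The median log2 fold change of the subunits ranged from -0.48 to 0.13 with one library left out, reversed to 0.01 with the length trend taken out, stayed between -0.26 and -0.13 with other normalizations and was -0.17 with the replicate block. With one library left out, 0 to 32 subunits had the labels apart downward and 0 to 29 upward, and with the length trend taken out 1 was apart upward. The 32 were counted without white RNAi replicate 1 and the 29 without white RNAi replicate 2. Labels come apart more easily when a label holds only 1 library. The shares of all tested features apart in these fits were not determined, so these counts show nothing particular to the subunits. The position of orb2 RNAi replicate 1 ranged from -0.21 to 0.13 and that of orb2 RNAi replicate 2 from -0.29 to 0.03 with one library left out, and that of orb2 RNAi replicate 1 was 0.15 with the length trend taken out. The span of subunit levels was 2.76-fold per kilobase of coding length (Prosalpha4 over Rpn1), and 2.70-fold with Prosalpha1 and Prosalpha1R summed (the sum over Rpn3). That sum is too high if shared reads were counted at both genes. The SD between the replicate 1 libraries was 0.0696 without Prosalpha1. The cause of these shifts was not tested, other than the fewer libraries in the fits that left one out.

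orb2 was called with the replicate block (2.22), with DESeq2 without shrinkage (2.28) and with its prior (1.58), and ranged from 1.73 to 2.71 with one library left out. Of 21 other named genes, 15 changed sign without white RNAi replicate 2, 10 with the length trend taken out and 2 without white RNAi replicate 1. With one library left out the log2 fold changes ran from -0.67 to 0.06 for Prosalpha2, -0.71 to 0.08 for Prosalpha3, -0.78 to 0.07 for Prosalpha5, -0.15 to 0.68 for Prosalpha1, -0.16 to 0.62 for Prosalpha1R, -0.78 to 0.20 for Prosbeta3 and -0.60 to 0.17 for Prosbeta7. They ran from -0.28 to 0.19 for Rpn10, -0.48 to 0.10 for Rpn11, -0.61 to 0.21 for Rpn12, -0.40 to 0.16 for Rpn13, -0.30 to 0.07 for Rpn3, -0.47 to 0.24 for Rpt3, -0.31 to 0.10 for Rpt4 and -0.44 to 0.13 for Rpt5. For Rpt6R, cnc and maf-S they ran from -0.75 to 0.13, -0.21 to 0.62 and -1.21 to 0.11. With the length trend taken out, Rpn10 stood at 0.16, Rpt4 at 0.09, Rpt3 at 0.05, Rpn11, Rpn13 and Rpn3 at 0.03, and Rpn12, Rpt5, Rpt3R and cnc at 0.00, each with its sign changed. Without a change of sign, Prosalpha5 moved to -0.16, Prosalpha2, Prosalpha3 and Prosbeta3 to -0.11, Prosbeta7 to 0.00 and Prosalpha1 to 0.47. The replicate block changed the call of none of the 32 subunits.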
